A study of Mus musculus with 43 samples.

Results

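Dendritic cells (DC) and Ly6Chi mononuclear cells, both flow sorted from newborn C57BL/6 mouse lungs in normoxia, were compared gene by gene. The comparison uses 12 of the 43 RNA-seq libraries of the series, 6 from DC and 6 from Ly6Chi cells, chosen by their labelled source, and all genes expressed in them. Pups were assigned to normoxia or to hyperoxia (FiO2 0.9) within hours of birth and killed after 1.5 days. The lungs were perfused and digested, and cells were sorted by flow cytometry, DC as MHC class II high and CD11c high and Ly6Chi monocytes/macrophages as Ly6C high and CD11c low. Alveolar macrophages and Ly6Clo cells complete the 4 populations. Each of the 3 litters, named 93, 100 and 108, gave 2 libraries to each of the 2 normoxic groups, and litter was a term of the fits reported, apart from alternatives named as without it. The 5 DC and 5 Ly6Chi libraries of the hyperoxic pups, from the same litters, were used only to repeat the contrast. The labels give no genetic change in any group and do not tie libraries to pups, so DC and Ly6Chi libraries can come from the same animals and p-values measure the spread between libraries.

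Dendritic cells take up antigen, cut it into peptides and show these on MHC molecules to T cells. Conventional DC fall into a cDC1 type, which depends on the transcription factor Batf3 and presents antigen to CD8 T cells, and a cDC2 type, which mainly addresses CD4 T cells; either can mature, switch on the chemokine receptor Ccr7 and travel to the lymph node. Ly6Chi monocytes are made in the bone marrow, circulate, enter tissues through Ccr2 and can become macrophages or DC-like cells. They carry adhesion, coagulation and antimicrobial genes shared in part with neutrophils.

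Libraries held 1152853 to 2403861 counts in DC (mean 1802300 ± 431020, SD, n = 6) and 1525352 to 2393286 in Ly6Chi cells (2016400 ± 343540, n = 6), which did not differ beyond the spread (exact two-sided permutation test, p = 0.353). DC libraries had counts for more genes, 16095 ± 214 against 15064 ± 460 in Ly6Chi libraries (exact two-sided permutation test, p = 0.00433). Both tests exchanged libraries freely across litters, so that their spread includes that between litters. The first principal component (46.8% of the variance) separated the groups. The second (14.4%) set litter 100 apart in both groups, with scores of 21.1 and 64.6 in its DC libraries and 11.4 and 52.8 in its Ly6Chi libraries, against −32.1 to 2.37 in the other 8.

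The labels were checked against the genes of the sort markers, whose proteins chose the cells and which are therefore given without a test. Levels are counts per 1000000 counts (CPM) after TMM scaling. H2-Ab1, the beta chain of the MHC class II molecule I-A, ran from 889 over a median of 1175 to 1634 CPM in DC and from 59.4 over 88.6 to 158 CPM in Ly6Chi cells. Itgax, which encodes CD11c, ran from 129 over 161 to 188 CPM in DC and from 3.75 over 6.36 to 15.8 CPM in Ly6Chi cells. In both genes every DC library lay above every Ly6Chi library. Ly6c2, the Ly6C antigen of monocytes, ran from 96.8 over 145 to 178 CPM in DC and from 353 over 405 to 532 CPM in Ly6Chi cells, so that the ranges were apart but DC were about 3.03-fold lower and not free of it. Counts of Ly6c2 ran only from 208 to 277 in DC and from 746 to 848 in Ly6Chi cells, although library totals varied more. They look limited, so that the difference of Ly6c2 may be understated. Its neighbour Ly6c1 overlapped between the groups, at 22.5 ± 15.4 CPM in DC and 62.7 ± 23.5 CPM in Ly6Chi cells. Siglecf, used to sort alveolar macrophages, was low in both, at 9.69 ± 7.86 CPM in DC and 2.97 ± 2.27 CPM in Ly6Chi cells (SD, n = 6 each). Of the genes that mark the cells but were not sorted on, Flt3, the receptor for the growth factor that drives DC development, ran from 241 over 291 to 346 CPM in DC and from 2.21 over 18.1 to 21.4 CPM in Ly6Chi cells. Ccr2, the receptor by which monocytes leave the marrow, ran from 959 over 1046 to 1228 CPM in DC and from 973 over 1032 to 1200 CPM in Ly6Chi cells, and was as abundant in DC as in Ly6Chi cells within the spread (log2 fold change 0.02 ± 0.07, SE).

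**Figure D1:**
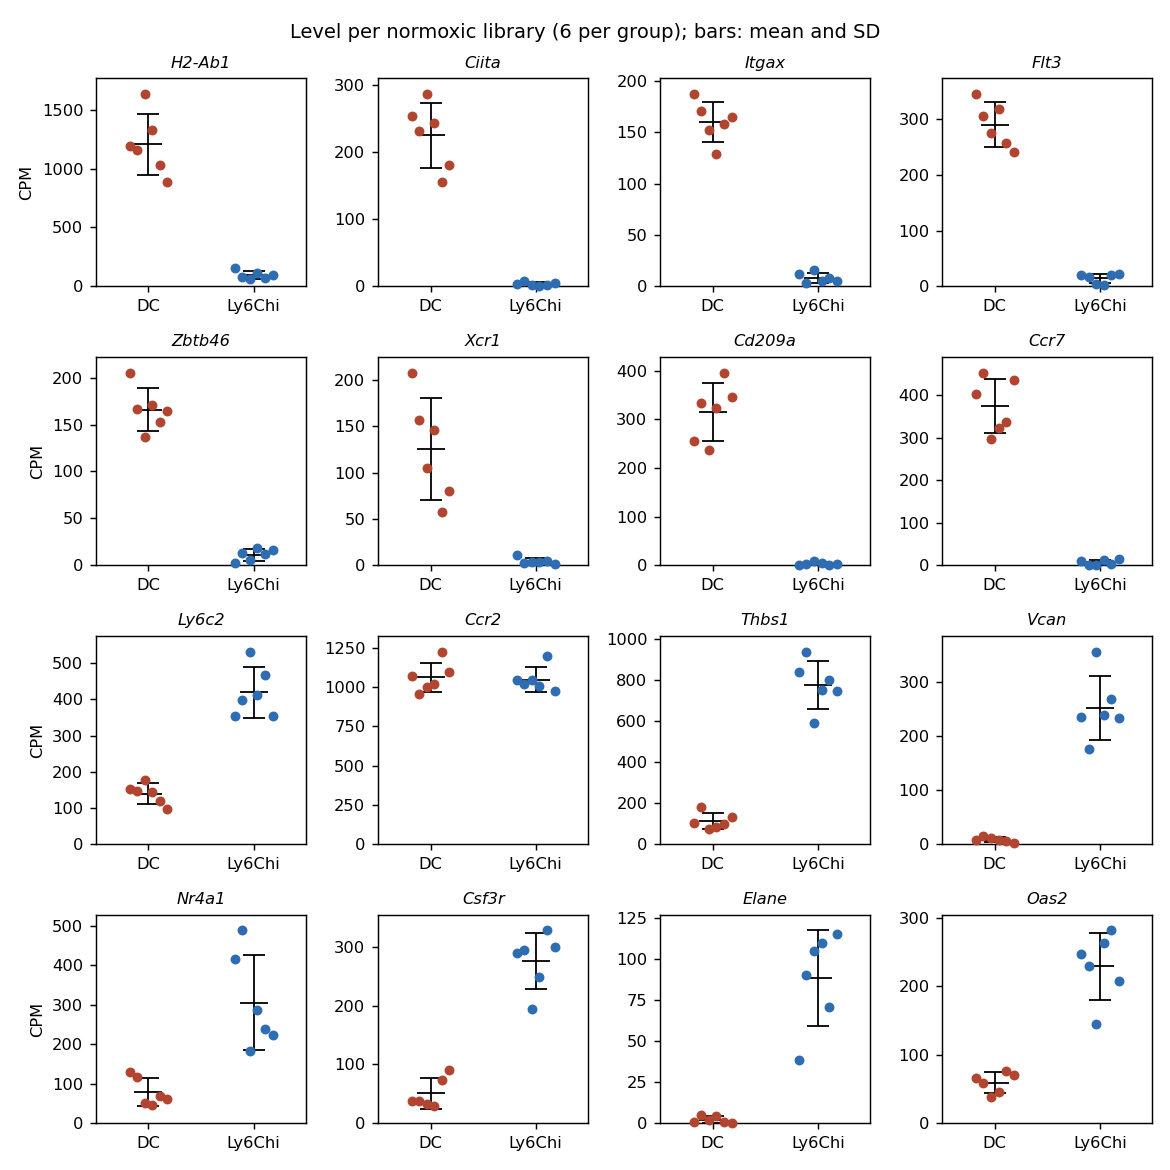
CPM of 16 genes in each of the 12 normoxic libraries (points, DC left and Ly6Chi right; horizontal bar and whiskers: mean and SD of 6 libraries). DC lie above Ly6Chi in the upper 8 panels, and below them in all lower panels other than Ccr2, where the groups overlap.

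Of 12116 genes tested, 3806 were called at an adjusted p under 0.05 (edgeR quasi-likelihood F test, Benjamini-Hochberg), which is 31.4% of those tested. The calls were even in number, with 1902 higher in DC (15.7%) and 1904 lower (15.7%). They were uneven in size. Among called genes 1162 were over 2-fold higher in DC and 697 over 2-fold lower. Within every litter, 3773 of the called genes (99.1%) kept the direction of the fit. The same libraries had made these calls, so this share is a description and no repeat in other data. The CPM ranges of the groups did not overlap for 992 genes higher in DC (8.19% of those tested) and 812 lower (6.7%). Without litter 100, which stood apart, 3671 genes were called, and without litter 93 the count was 2180, of which 2128 were among the 3806. The median log2 fold change of all genes was 0.01, so that list medians below can be read against a background near 0. Counts of called list members can be read against the 15.7% of all genes called in each direction.

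**Figure D2:**
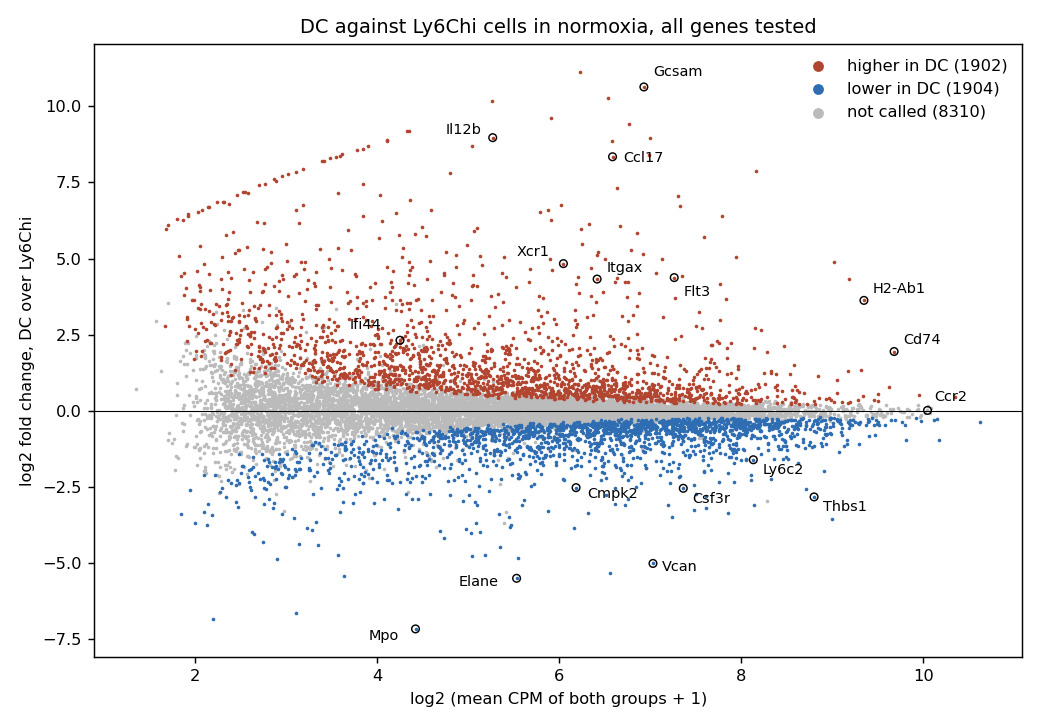
Log2 fold change (DC over Ly6Chi) against the log2 mean level for the 12116 genes tested; 1902 were called higher in DC (red) and 1904 lower (blue). The highest fold changes are on the DC side; values of genes with almost no counts in a group, such as Gcsam, Il12b and Mpo, depend on the prior count and are not to be read as folds.

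The 12 genes most raised in DC were at or near 0 in Ly6Chi cells. They were taken by fold change among called genes with at least 50 CPM and no overlap. DC had the highest mean of the 4 normoxic populations for 12 of 12. The choice of genes fixed DC above Ly6Chi cells, so only alveolar macrophages and Ly6Clo cells could have been higher. The same share over all genes was not taken. H2-M2, a non-classical MHC class I gene, had 1607 counts over the 6 DC libraries and 0 in the Ly6Chi libraries, at least 579-fold higher when Ly6Chi is set at 3 counts over the group. Gcsam, a signalling adaptor first known from germinal centres, ran from 164 over 234 to 321 CPM in DC and had 1 count in the 6 Ly6Chi libraries, a ratio of 2771 with an exact 95% interval of 497 to 109500 that covers counting error only. Apol7c, an apolipoprotein L family gene, had a ratio of 2227 (399 to 87988). Sept3, a septin, had 789 counts in DC and 0 in Ly6Chi cells (at least 284-fold higher). Cyp8b1, known as a bile acid synthesis enzyme in liver, had a ratio of 1381 (247 to 54602), Zmynd15 one of 827 (283 to 4013) and Klrd1, which encodes the lectin CD94, one of 725 (130 to 28688). The adhesion gene Hepacam2 averaged 252 ± 49.2 CPM in DC and 0.667 ± 1.06 CPM in Ly6Chi cells (log2 fold change 8.42 ± 0.38; 9.37 without Ly6Chi replicate 2). The remaining members, Itgae, Il12b, Ccl5 and Ccl17, are described with their groups.

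Antigen presentation on MHC class II separated the populations. Of 15 genes listed for it, 12 were called higher in DC and 0 lower, with a median log2 fold change of 2.71, against 15.7% of all genes called higher. H2-Aa, H2-Ab1 and H2-Eb1 among them encode the sorted molecule, which leaves 9 of 12 other members called higher. Ciita, the transactivator that switches class II genes on, ran from 155 over 237 to 287 CPM in DC and from 1.11 over 2.66 to 7.96 CPM in Ly6Chi cells. Its ranges were far apart, with a log2 fold change of 5.84 ± 0.27 (adjusted p = 2.33e-09). Cd74, the invariant chain that guides class II through the cell, was less unequal, at 1303 ± 214 CPM in DC and 334 ± 78.9 CPM in Ly6Chi cells (1.95 ± 0.16). Its counts in DC ran only from 1901 to 2424, although DC library totals ran from 1152853 to 2403861. Those of H2-Ab1 in DC ran from 1911 to 2164. Abundant transcripts look limited in these counts, so both differences may be understated. Over 23 alternatives the log2 fold change of Cd74 ran from 1.755 to 2.563. The subunits of H2-DM, which loads peptides, differed by 2.71 ± 0.10 for H2-DMb1, 1.85 ± 0.13 for H2-DMb2 and 1.01 ± 0.09 for H2-DMa. H2-O, which restrains H2-DM, differed by 4.40 ± 0.40 for H2-Ob and 3.03 ± 0.28 for H2-Oa. The 3 members not called were Ctss, the protease that trims the invariant chain (1004 CPM in DC, 965 CPM in Ly6Chi cells), Ifi30, a lysosomal thiol reductase (443 and 404 CPM in that order), and March1, a ubiquitin ligase that removes class II from the surface (227 CPM in DC, 267 CPM in Ly6Chi cells). March1 was called lower in DC without litter 100, without DC replicate 3, without Ly6Chi replicate 4 and by limma voom.

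Class II promoters share short boxes upstream of the start, among them the X box, bound by RFX factors, and the Y box, an inverted CCAAT bound by NF-Y, which together recruit Ciita. The windows of 5 called genes are shown 5′ to 3′ on the gene's strand because their levels moved together, with matches to the X box letters (AGNAAC followed at once by NNATG) and the Y box letters (TGATTGG) in capitals (RefSeq promoters of build GRCm38.p6).
H2-Eb1 at chr17:34305746-34305835, plus strand: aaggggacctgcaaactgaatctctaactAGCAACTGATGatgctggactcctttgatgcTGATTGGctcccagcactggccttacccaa
H2-Eb2 at chr17:34325513-34325602, plus strand: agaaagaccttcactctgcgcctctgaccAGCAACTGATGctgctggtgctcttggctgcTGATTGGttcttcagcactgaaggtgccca
H2-DMb1 at chr17:34153068-34153157, plus strand: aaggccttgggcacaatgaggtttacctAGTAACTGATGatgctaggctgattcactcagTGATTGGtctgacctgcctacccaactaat
H2-Ob at chr17:34238786-34238875, plus strand: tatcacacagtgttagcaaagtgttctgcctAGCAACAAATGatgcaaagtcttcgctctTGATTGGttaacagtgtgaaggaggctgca
H2-Aa at chr17:34287844-34287933, minus strand: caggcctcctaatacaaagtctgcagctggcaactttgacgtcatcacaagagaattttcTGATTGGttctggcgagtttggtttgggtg
In the first 4 the boxes are 18 to 21 bases apart, and H2-Aa matches the Y box letters only. On either strand of the 300-base promoter, the Y box letters were found in 7 of the 11 listed genes with a promoter in the table (63.6%), against 9% of all 27025 promoters. The X box letters were found in 4 of 11 (36.4%), against 1.04% of all, and the letters of the boxes do not overlap. Both motifs were written after these promoters had been read, and a match is a description, not a binding site.

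MHC class I and peptide loading differed less. Of 20 members tested 10 were called higher in DC and 0 lower (median 0.34), and the count was 6 without litter 93 and in a fit of all 43 libraries. H2-K1, a classical class I heavy chain, averaged 553 CPM in DC and 421 CPM in Ly6Chi cells (0.39 ± 0.09). Tap1 and Tap2, which pump peptides into the endoplasmic reticulum, differed by 0.74 ± 0.13 and 0.88 ± 0.20, and H2-M3, which presents formylated peptides, by 1.26 ± 0.16. H2-Q6 and H2-Q7 had the highest fold changes of the list, 5.08 ± 0.57 (5.80 for H2-Q6 without Ly6Chi replicate 3) and 4.46 ± 0.46, but are near-identical copies whose reads may have been split or lost in counting. H2-D1 and B2m, the other classical heavy chain and the shared light chain, were not called, at 875 and 641 CPM in DC and 886 and 596 CPM in Ly6Chi cells.

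The transcription factors of DC development were mostly higher in DC, with 13 of 20 called higher and 2 lower (median 1.33). Irf8, needed for cDC1, ran from 704 over 938 to 1108 CPM in DC and from 260 over 376 to 414 CPM in Ly6Chi cells. All DC libraries were above all Ly6Chi libraries, though Ly6Chi cells had it too (1.33 ± 0.11, adjusted p = 3.35e-07). Zbtb46, a factor that marks conventional DC, ran from 137 over 165 to 205 CPM in DC and from 2.1 over 12.5 to 18.3 CPM in Ly6Chi cells, without overlap (3.89 ± 0.32). Batf3, the cDC1 factor, averaged 186 ± 75.2 CPM in DC and 44.1 ± 8.31 CPM in Ly6Chi cells, and Irf4, linked to cDC2, 39.6 ± 9.86 CPM in DC and 12.4 ± 9.44 CPM in Ly6Chi cells. The repressor Etv3 (2.21 ± 0.14) and the Notch effector Rbpj (1.99 ± 0.16) were also called higher. Nfil3, which is needed for cDC1 precursors, was lower in DC, at 61.7 CPM against 219 CPM in Ly6Chi cells (−1.88 ± 0.17), as was Ikzf1, the lymphoid and myeloid factor Ikaros (−0.56 ± 0.11).

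Of 20 genes of the conventional DC core, 18 were called higher in DC and 0 lower (median 3.51). The members included Slamf7, a receptor of the SLAM family, at 435 CPM in DC and 4.97 CPM in Ly6Chi cells (6.4 ± 0.27), the signalling adaptor Traf1 (4.70 ± 0.29), the kynurenine enzyme Kmo (4.25 ± 0.35) and the peptidase Dpp4 (3.68 ± 0.33). Haao and Gpr132 were not called, at 142 and 34.8 CPM in DC and 113 and 24.2 CPM in Ly6Chi cells.

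All 19 cDC1 markers tested were called higher in DC (median 4.16), and Cd207, with 31 counts in DC and 0 in Ly6Chi cells, did not pass the filter on low counts. Xcr1, the chemokine receptor by which cDC1 meet CD8 T cells, ran from 57.7 over 126 to 208 CPM in DC and from 1.75 over 3.31 to 10.5 CPM in Ly6Chi cells. Clec9a, a receptor for dead cells, ran from 141 over 291 to 349 CPM in DC and from 2.19 over 6.2 to 20.6 CPM in Ly6Chi cells. Neither gene overlapped between groups, with log2 fold changes of 4.84 ± 0.27 and 4.97 ± 0.28. Itgae, the integrin chain CD103 of lung and gut cDC1, ran from 152 over 181 to 250 CPM in DC and from 0 over 0.219 to 0.937 CPM in Ly6Chi cells (8.87 ± 0.29). Tlr11, a receptor for microbial profilin, ran from 98.5 over 119 to 186 CPM in DC and from 0 over 0.696 to 4.76 CPM in Ly6Chi cells (6.75 ± 0.43; 7.87 without Ly6Chi replicate 5). The adhesion molecule Cadm1 (4.16 ± 0.37), the double-stranded RNA receptor Tlr3 (4.42 ± 0.39) and the chemokine receptor Cxcr3 (3.76 ± 0.21) were higher as well.

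The cDC2 markers were mixed, with 9 of 14 called higher and 4 lower (median 1.32). Cd209a, a DC-SIGN family lectin, ran from 237 over 328 to 396 CPM in DC and from 0 over 2.94 to 9.23 CPM in Ly6Chi cells. Mgl2, the galactose lectin CD301b, ran from 131 over 205 to 272 CPM in DC and from 0 over 1.11 to 2.98 CPM in Ly6Chi cells. These lectins were near 0 in every Ly6Chi library, with fold changes of 6.72 ± 0.38 and 7.31 ± 0.31 on the log2 scale. The 4 members lower in DC are proteins that monocytes carry too: Itgam, the CD11b chain, at 152 CPM against 363 CPM in Ly6Chi cells, Sirpa at 367 against 609 CPM, Clec4a2 at 178 against 322 CPM, and the sparse Clec4a4, whose call was lost under 15 of 23 alternatives, among them leaving out any litter. A bulk library does not tell whether cDC1 and cDC2 genes came from the same cells, nor fewer cells of a type from less RNA per cell.

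Mature and migratory DC genes were higher in 20 of 25 and lower in 1 (median 2.84). Ccr7, the receptor that leads DC to lymph nodes, ran from 298 over 370 to 454 CPM in DC and from 0 over 6.61 to 15.7 CPM in Ly6Chi cells (5.70 ± 0.43). Ccl22 and Ccl17, ligands of Ccr4 on T cells, averaged 312 ± 82.4 and 190 ± 93.8 CPM in DC and 2.34 ± 5.51 and 0.436 ± 0.715 CPM in Ly6Chi cells. The actin bundler Fscn1 (5.06 ± 0.37), the retinoic acid enzyme Aldh1a2 (5.94 ± 0.59; 7.07 without Ly6Chi replicate 6) and the phenylalanine oxidase Il4i1 (5.12 ± 0.46) were raised with them. Samsn1, an inhibitory adaptor, was lower in DC (−0.58 ± 0.08).

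Signals to T cells followed with 9 of 14 co-stimulatory and checkpoint ligands called higher and 1 lower (median 1.32). Cd83, a marker of mature DC, averaged 389 ± 36.8 CPM in DC and 83.1 ± 26.5 CPM in Ly6Chi cells. Cd86 was common to both, at 491 ± 46.9 CPM in DC and 280 ± 29.8 CPM in Ly6Chi cells (0.81 ± 0.09), and its partner Cd80 was not called (42.2 CPM in DC, 54.5 CPM in Ly6Chi cells). Cd40, by which T cells license DC, differed by 2.84 ± 0.38. The checkpoint ligands Pdcd1lg2 and Cd274 differed by 4.89 ± 0.55 and 1.49 ± 0.26. Tnfsf8, the CD30 ligand, had 355 counts in DC and 2 in Ly6Chi cells, a ratio of 192 (exact 95% interval 52.7 to 1590). Vsir, the inhibitory receptor VISTA, was lower in DC, at 186 CPM against 438 CPM in Ly6Chi cells (−1.28 ± 0.11).

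Cytokines were mixed, with 6 of 19 called higher and 3 lower (median −0.00), against 15.7% of all genes called in each direction. The count higher was 3 without litter 108 and in a fit of all 43 libraries. Il12b, the subunit shared by IL-12 and IL-23, ran from 48 over 73.2 to 106 CPM in DC and had 1 count in the 6 Ly6Chi libraries, a ratio of 900 (161 to 35605). Il12a, its partner in IL-12, was low, at 6.52 ± 1.05 CPM in DC and 1.61 ± 1.56 CPM in Ly6Chi cells, and lost its call under 12 of 20 alternatives. Il23a, the partner in IL-23, had 0 counts in DC and 1 in Ly6Chi cells. Il1a (3.65 ± 0.42) and Il18bp, a decoy for IL-18 (3.52 ± 0.61), were higher in DC, while Il15 (−0.66 ± 0.13) and Il27 (−1.61 ± 0.32) were lower. Tnf was not called (41.3 CPM in DC, 49.7 CPM in Ly6Chi cells).

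Of 15 chemokines 7 were called higher and 4 lower (median 1.10). Cxcl16, the ligand of Cxcr6, was even between DC libraries, at 477 ± 18.3 CPM in DC and 14.6 ± 8.13 CPM in Ly6Chi cells (5.06 ± 0.21). Ccl5, a chemokine that draws T cells, ran from 159 over 225 to 486 CPM in DC and from 0 over 0 to 1.79 CPM in Ly6Chi cells. DC replicate 3, of litter 100, held the highest level of Ccl5 and of Ccl17, and every DC library was still above every Ly6Chi library. The monocyte attractants Ccl2 (−1.36 ± 0.37) and Ccl3 (−0.93 ± 0.20) and the related Ccl6 and Ccl9 were lower in DC, and 0 of these 4 passed without litter 93. Ccl7 and Ccl12, which also attract monocytes, were higher in DC (2.36 ± 0.82 and 2.81 ± 0.94), but each lost its call under 13 of 23 alternatives. Ly6Chi replicate 2 held 29.5 and 69.8 CPM of them, and without it the values were 3.14 and 5.69. Without Ly6Chi replicate 6 Ccl7 had 3.24. DC replicate 2 held 214 counts of Ccl7, the other DC libraries 18 to 49. It held 213 counts of Ccl12, the others 8 to 111, and without it Ccl12 had 3.43 and lost its call. Of 23 chemoattractant receptors 8 were higher and 7 lower (median 0.02): the oxysterol receptor Gpr183 differed by 1.21 ± 0.12, while the leukotriene receptor Ltb4r1 differed by −1.57 ± 0.12 and the formyl peptide receptor Fpr2 by −2.25 ± 0.14.

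**Figure D3:**
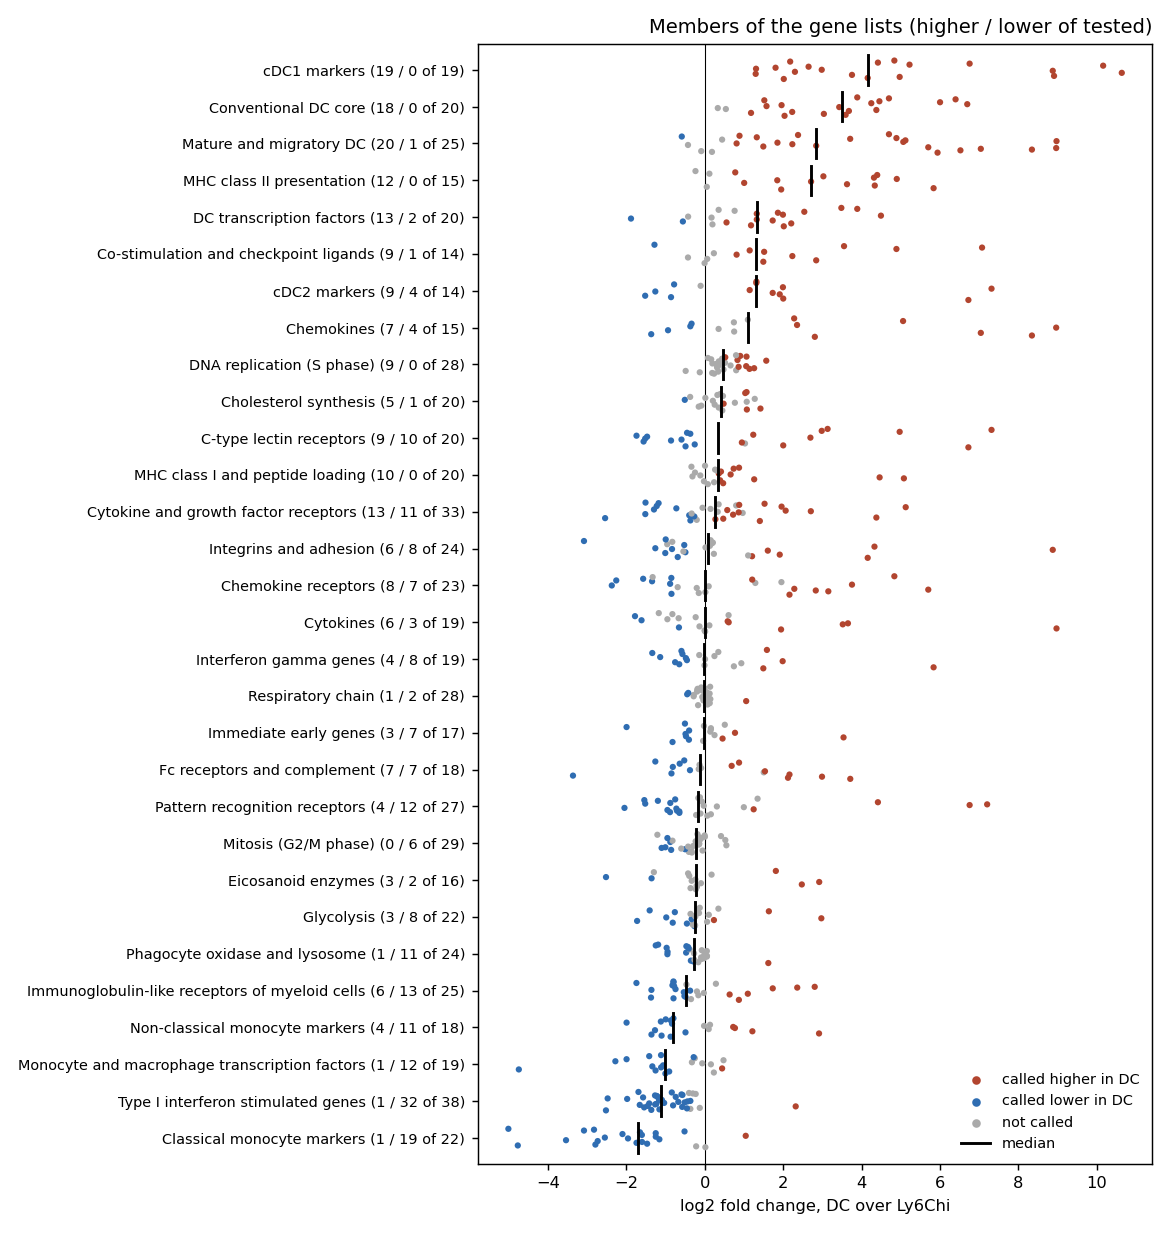
Log2 fold change (DC over Ly6Chi) of each tested member of 30 gene lists, with the list's median as a bar and the numbers called higher and lower of those tested beside its name. Lists are ordered by median, from 4.16 for cDC1 markers at the top to −1.69 for classical monocyte markers at the bottom.

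Of 22 classical monocyte markers, 19 were called lower in DC and 1 higher (median −1.69), against 15.7% of all genes called lower. Vcan, the matrix proteoglycan versican, ran from 2.06 over 7.37 to 14.6 CPM in DC and from 176 over 237 to 356 CPM in Ly6Chi cells. Thbs1, the adhesive glycoprotein thrombospondin, ran from 71.8 over 101 to 181 CPM in DC and from 591 over 775 to 940 CPM in Ly6Chi cells. Both were without overlap, with log2 fold changes of −5.00 ± 0.28 and −2.82 ± 0.14. F13a1, a coagulation factor chain, averaged 90 ± 58.6 CPM in DC and 925 ± 259 CPM in Ly6Chi cells. The haemoglobin scavenger Hp (−2.55 ± 0.09) and the chitinase-like Chil3 (−2.79 ± 0.28) were lower too. Ly6a, the Sca-1 antigen, was higher in DC (1.05 ± 0.10), and neither Ccr2 nor Cd14, the endotoxin co-receptor (249 CPM in DC, 287 CPM in Ly6Chi cells), was called. Plac8 was lower by 0.51 ± 0.13 on the log2 scale and lost its call without litter 93 or litter 108. Its counts ran only from 628 to 747 in DC and from 1013 to 1137 in Ly6Chi cells, so this difference may be understated.

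Monocyte and macrophage transcription factors fell in DC in 12 of 19, with 1 higher (median −1.0). Nr4a1, on which Ly6Clo monocytes depend, ran from 45.4 over 64.3 to 129 CPM in DC and from 181 over 262 to 489 CPM in Ly6Chi cells, without overlap (−1.99 ± 0.13). Its relative Nr4a3, listed with the DC factors, had the opposite sign, at 14.6 ± 8.38 CPM in DC and 0.698 ± 1.29 CPM in Ly6Chi cells (4.49 ± 0.70; 5.94 without Ly6Chi replicate 3). Nfe2, best known from platelets and red cells, averaged 94.6 ± 23.1 CPM in DC and 453 ± 35.6 CPM in Ly6Chi cells. Klf2 (−1.33 ± 0.11), Cebpb (−0.90 ± 0.09), Zeb2 (−1.11 ± 0.11) and the granule gene regulator Cebpe (−4.74 ± 0.59) were lower. Spi1, which encodes PU.1, differed little (−0.28 ± 0.07), and Hif1a, the only member called higher (0.44 ± 0.16), lost its call under 11 of 23 alternatives. Non-classical monocyte markers were lower in 11 of 18 and higher in 4 (median −0.81), and 7 were lower without litter 93 and in a fit of all 43 libraries. Cx3cr1 was not called (247 CPM in DC, 226 CPM in Ly6Chi cells).

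Neutrophil and granule genes were lower in DC in 17 of 22 members, with 1 higher (median −2.47), and among the 12 genes lowest in DC by fold change 4 are on this list. Elane, neutrophil elastase, ran from 0 over 1.13 to 4.86 CPM in DC and from 38.6 over 97.6 to 116 CPM in Ly6Chi cells, without overlap (−5.49 ± 0.48, adjusted p = 8.32e-07; −6.17 without DC replicate 2). Mpo, myeloperoxidase, was uneven, from 0 over 0 to 1.08 CPM in DC and from 1.26 over 17.1 to 113 CPM in Ly6Chi cells. It had 2 counts in DC and 479 in Ly6Chi cells, so that Ly6Chi cells were 222-fold higher by counts (61.0 to 1835). Prtn3, proteinase 3 (−4.48 ± 0.38; −5.06 without DC replicate 2), and Fcnb, ficolin B (−5.30 ± 0.41; −5.95 without DC replicate 4), were lower in DC, and Ctsg, cathepsin G, had 0 counts in DC and was at least 25.6-fold higher in Ly6Chi cells. Csf3r, the receptor for granulocyte colony-stimulating factor, ran from 29 over 37.7 to 91 CPM in DC and from 194 over 294 to 329 CPM in Ly6Chi cells (−2.54 ± 0.16). S100a8 and S100a9, the subunits of calprotectin, averaged 98.5 ± 59.9 and 89.9 ± 74.6 CPM in DC and 297 ± 61.9 and 292 ± 76.8 CPM in Ly6Chi cells. The late granule genes Ltf and Ngp were at 36.9 and 102 CPM in DC and at 319 and 521 CPM in Ly6Chi cells, and Ngp was not called. DC replicates 4 and 6 were the highest, with 473 and 111 CPM of Ngp and 121 and 72.1 CPM of Ltf, against at most 23.2 and 17.1 CPM in the other 4. Without DC replicate 4 Ngp was called lower, and 18 of 22 members were lower, and without DC replicate 6 17 were. Ltf lost its call without litter 93 and without litter 108. Summed over the list, levels ran from 633 to 1909 CPM in DC and from 2719 to 4923 CPM in Ly6Chi cells. Ly6g, a defining neutrophil antigen, had 13 counts in DC and 44 in Ly6Chi cells, too few to be tested, and the part of neutrophils or of precursors in these levels was not tested.

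The other genes lowest in DC were Olfm4, olfactomedin (−4.81 ± 0.76; −6.33 without DC replicate 4, which holds 29 of its 38 counts there), Cd177, a neutrophil antigen on both this and the monocyte list (−4.76 ± 0.57), Sgms2, a sphingomyelin synthase (−4.72 ± 0.25), Plcb1, a phospholipase C (−4.0 ± 0.25), Cldn15, a claudin (−3.98 ± 0.40), F5, coagulation factor V (−3.89 ± 0.48; −4.83 without DC replicate 2), Stfa3, a stefin (−3.83 ± 0.31), and Pi16, a peptidase inhibitor (−3.80 ± 0.26). Ly6Chi cells had the highest mean of the 4 normoxic populations for 12 of these 12. Here too the choice of genes fixed Ly6Chi cells above DC, so only the remaining populations could have been higher.

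Type I interferon stimulated genes were lower in DC almost throughout: of 38, 32 were called lower, 1 higher and 5 not called (median −1.12, against 15.7% of all genes called lower). Summed levels ran from 3667 to 4873 CPM in DC and from 6885 to 9374 CPM in Ly6Chi cells, without overlap. Cmpk2, a nucleotide kinase next to viperin, ran from 16.2 over 21.9 to 24.5 CPM in DC and from 79.8 over 125 to 155 CPM in Ly6Chi cells (−2.52 ± 0.17). Oas2, which senses double-stranded RNA, ran from 37.6 over 62 to 76.5 CPM in DC and from 144 over 238 to 282 CPM in Ly6Chi cells (−1.98 ± 0.16). Ifit3, which acts on viral RNA with its family, ran from 38.5 over 48.7 to 67.5 CPM in DC and from 75.6 over 123 to 136 CPM in Ly6Chi cells (−1.23 ± 0.14). None of the 3 overlapped between the groups. The regulators Irf7 (−1.03 ± 0.15) and Irf9 (−0.51 ± 0.10) were lower, while Stat2 was not called (105 CPM in DC, 122 CPM in Ly6Chi cells). Ifi44 went the other way, from 12.4 over 32.1 to 41.8 CPM in DC and from 1.41 over 4.35 to 23.2 CPM in Ly6Chi cells. Its ranges overlapped through Ly6Chi replicate 5, and its call (2.32 ± 0.51) was lost without litter 93.

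Interferon stimulated promoters carry a response element bound by Stat and Irf factors. Windows of 4 genes called lower are shown to give the letters of this element. A gene was shown only if it holds GAAA, any 2 bases and GAAA again on either strand. Matches are in capitals, with TTTC in place of GAAA when read on the other strand. The windows run 5′ to 3′ on the gene's strand (RefSeq, GRCm38.p6).
Oas1a at chr5:120907526-120907575, minus strand: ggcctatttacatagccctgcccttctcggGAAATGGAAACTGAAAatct
Oas3 at chr5:120777685-120777764, minus strand: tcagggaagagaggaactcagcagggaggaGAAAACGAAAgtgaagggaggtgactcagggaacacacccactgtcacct
Ifit3 at chr19:34583343-34583422, plus strand: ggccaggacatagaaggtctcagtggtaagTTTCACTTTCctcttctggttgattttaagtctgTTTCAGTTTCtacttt
Slfn5 at chr11:82951917-82951996, plus strand: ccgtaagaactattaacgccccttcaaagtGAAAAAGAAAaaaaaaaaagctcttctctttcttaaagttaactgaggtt
The letters were found in 15 of the 27 listed genes with a promoter in the table (55.6%), in 11 of the 22 called lower (50%) and in 3.99% of all 27025 promoters. Copies can overlap, as in Oas1a. A match is a description, not a binding site, and the part of the element in the lower levels was not tested. The fold changes of these 4 genes were −1.09 ± 0.12, −2.47 ± 0.30, −1.23 ± 0.14 and −1.27 ± 0.15 on the log2 scale, in the order shown.

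**Figure D4:**
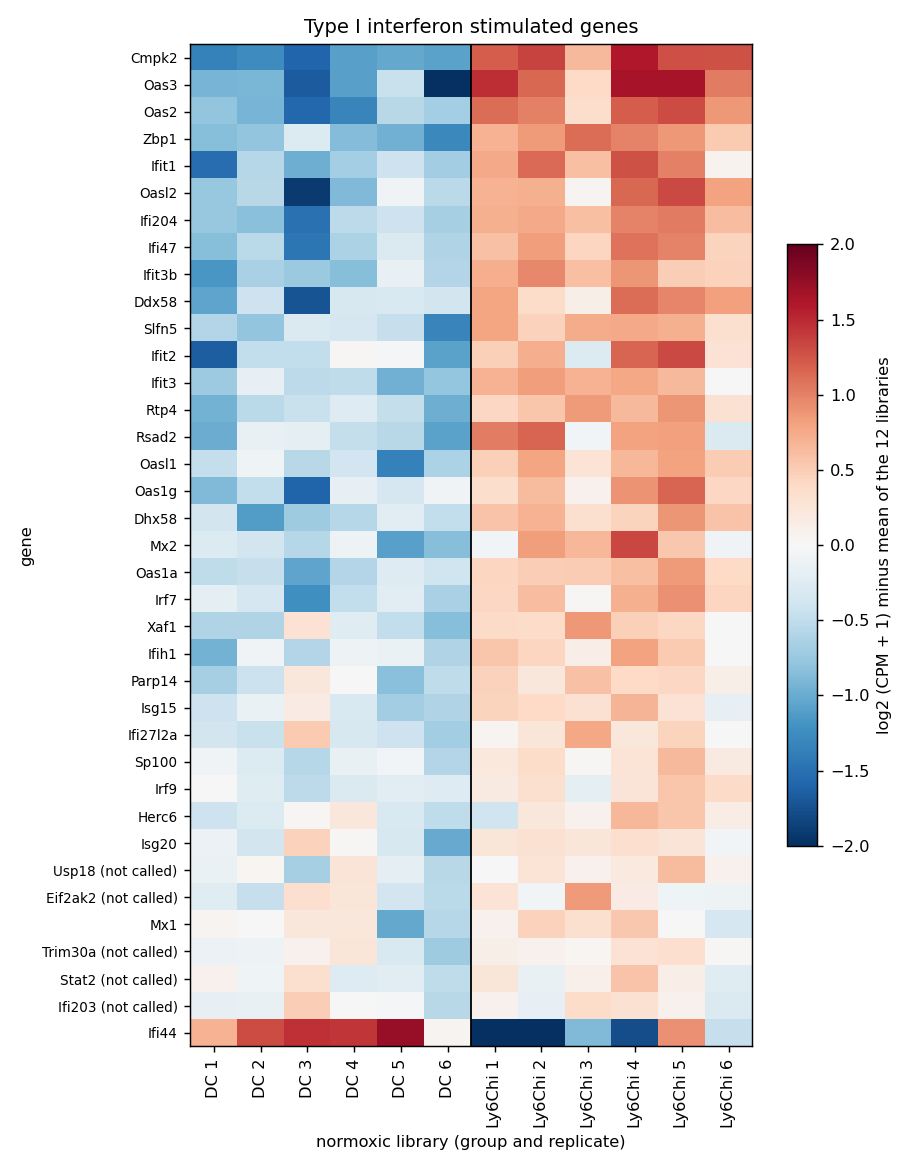
Level of 37 of the 38 type I interferon stimulated genes in the 12 normoxic libraries, as log2 (CPM + 1) minus the gene's mean over the 12, with colours ending at 2 and −2. DC libraries (left) are mostly blue and Ly6Chi libraries (right) red, with Ifi44 in the last row reversed.

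Interferon gamma genes were divided, with 4 of 19 called higher in DC and 8 lower (median −0.01), against 15.7% of all genes called in each direction. The count lower was 5 without litter 93 or without the litter term and 3 in a fit of all 43 libraries. Ciita is among the 4 called higher. The guanylate binding protein Gbp8 was higher (1.99 ± 0.31), and the immunity-related GTPases Igtp (−1.13 ± 0.15) and Irgm2 (−1.34 ± 0.25) were lower. Ifngr1 was not called (855 CPM in DC, 852 CPM in Ly6Chi cells) and Ifngr2 was slightly lower (−0.48 ± 0.07).

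Of 27 pattern recognition receptors and adaptors, 12 were lower in DC and 4 higher (median −0.16), against 15.7% of all genes called in each direction. The receptors higher in DC were Tlr3, Tlr11, Tlr12, which had 99 counts in DC and 0 in Ly6Chi cells and was at least 35.7-fold higher, and the inflammasome sensor Nlrp1b (1.25 ± 0.32). Those lower were the RNA sensors Tlr7 (−1.54 ± 0.15) and Tlr13 (−1.52 ± 0.14), the peptidoglycan sensor Nod1 (−2.04 ± 0.16) and the adaptor Myd88 (−0.88 ± 0.12). Tlr4, the endotoxin receptor, was not called (75.5 CPM in DC, 78.8 CPM in Ly6Chi cells). C-type lectin receptors divided almost evenly, with 9 of 20 higher and 10 lower (median 0.35). Beside the DC lectins above, the mannose receptor Mrc1 was higher (3.13 ± 0.36), whereas Clec4e and Clec4d, receptors for mycobacterial glycolipids, were lower (−1.74 ± 0.21 and −1.47 ± 0.20).

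Complement and Fc receptor genes were also divided, with 7 of 18 higher and 7 lower (median −0.11). C3, the central complement protein, ran from 27 over 36.6 to 67 CPM in DC and from 356 over 426 to 488 CPM in Ly6Chi cells (−3.36 ± 0.18). C1qa, a chain of the first component, ran from 172 over 315 to 365 CPM in DC and from 4.62 over 23.9 to 33.2 CPM in Ly6Chi cells (3.71 ± 0.30). The groups were apart in both genes, in opposite directions. C1qb and C1qc moved with C1qa (2.12 ± 0.14 and 2.99 ± 0.16), and the activating Fc receptors Fcgr1 (−0.81 ± 0.10) and Fcgr4 (−0.64 ± 0.11) were lower while the inhibitory Fcgr2b was higher (0.69 ± 0.07).

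Growth factor and cytokine receptors were higher in 13 of 33 and lower in 11 (median 0.27). The count lower was 5 without litter 93 and 7 in a fit of all 43 libraries. Besides Flt3, Il7r (5.13 ± 0.56; 7.07 without Ly6Chi replicate 6, which holds 18 of its 21 counts there), the RANK receptor Tnfrsf11a (1.53 ± 0.15) and Tgfbr1 (0.88 ± 0.10) were higher, whereas the TNF receptors Tnfrsf1b (−1.51 ± 0.10) and Tnfrsf1a (−1.18 ± 0.13) and Il17ra (−1.51 ± 0.13) were lower. Csf1r, the macrophage growth factor receptor, differed little, at 509 CPM in DC and 640 CPM in Ly6Chi cells (−0.36 ± 0.10). Integrins and adhesion genes were higher in 6 of 24 and lower in 8 (median 0.08), and immunoglobulin-like receptors higher in 6 of 25 and lower in 13 (median −0.47), with the sialic acid lectin Siglecg at 2.36 ± 0.17 and the receptor Trem3 at −1.74 ± 0.21.

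Oxidase and lysosome genes were lower in 11 of 24 and higher in 1 (median −0.28). Cybb, the catalytic subunit of the phagocyte oxidase, averaged 788 ± 107 CPM in DC and 1516 ± 142 CPM in Ly6Chi cells (−0.95 ± 0.07). Slc11a1, a metal exporter of phagosomes, was lower (−1.25 ± 0.13), and the tetraspanin Cd63 higher (1.62 ± 0.20). Among 16 eicosanoid genes 3 were higher and 2 lower (median −0.23), near the 15.7% of all genes called in each direction. The prostaglandin D synthase Hpgds (2.48 ± 0.25), the leukotriene C4 synthase Ltc4s (2.92 ± 0.35) and the thromboxane synthase Tbxas1 (1.81 ± 0.23) were higher. Pla2g7 (−1.35 ± 0.11) and the prostaglandin E synthase Ptges (−2.52 ± 0.57, and −1.87 without Ly6Chi replicate 4) were lower.

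Of 22 glycolysis genes 3 were higher and 8 lower (median −0.24), with the regulatory enzyme Pfkfb3 at 53.1 ± 10.3 CPM in DC and 7.07 ± 4.26 CPM in Ly6Chi cells, while Pkm (−0.76 ± 0.10) and Hk3 (−1.72 ± 0.29) were lower; 1 was higher and 5 lower without litter 93. Of 28 respiratory chain genes 1 was higher and 2 lower (median −0.01). Of 20 cholesterol genes 5 were higher and 1 lower (median 0.42), with Cyp51 (1.08 ± 0.14) and the regulator Srebf2 (1.07 ± 0.16) among those higher. Without litter 108, 3 cholesterol genes were higher and 0 lower. Of 28 replication genes 9 were higher and 0 lower (median 0.46), led by the polymerase subunit Pola1 (1.57 ± 0.29), but 1 was higher without litter 93 and 4 without litter 100. Of 29 mitosis genes 0 were higher and 6 lower (median −0.23), led by cyclin B2, Ccnb2 (−1.10 ± 0.16); 10 were lower without litter 93 and 2 without litter 100. Over all genes 15.7% were called higher in DC and 15.7% lower, to be set beside each list of this paragraph. The phases were not tested against each other. Mki67 was not called (121 CPM in DC, 134 CPM in Ly6Chi cells). Among 17 immediate early genes, which tissue digestion can raise, 3 were higher and 7 lower (median −0.02): Fos was at 747 CPM in DC and 1029 CPM in Ly6Chi cells (−0.48 ± 0.08), and Egr2 at 21.6 and 1.96 CPM in that order (3.54 ± 0.58; 4.34 without Ly6Chi replicate 2).

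Markers of other cells differed between the groups in some lists more than in others, to be read against the 15.7% of all genes called in each direction. B cell markers were higher in DC in 9 of 12 tested (median 2.06), and 5 were without litter 108. Summed B cell markers ran from 363 to 1057 CPM in DC and from 279 to 476 CPM in Ly6Chi cells, and Igll1 was at 0 in both. Plasmacytoid DC markers were higher in 8 of 12 (median 1.81; 5 without litter 93 or litter 100), with Siglech at 69.7 CPM in DC and 11.2 CPM in Ly6Chi cells and a sum of 813 to 998 CPM in DC and 520 to 577 CPM in Ly6Chi cells. Interstitial macrophage markers, which hold the C1q genes and Mrc1, were higher in 11 of 18 and lower in 1 (median 1.76). Their sum was 3185 to 4370 CPM in DC and 2051 to 2488 CPM in Ly6Chi cells. Timd4 had 300 counts in DC and 1 in Ly6Chi cells. DC replicate 2 held 186 of the 300, and the other DC libraries 4 to 51. Cd163 had 69 counts in DC and 0 in Ly6Chi cells. Of 18 alveolar macrophage markers 7 were higher and 2 lower (median 0.19; 4 higher without litter 108), with a sum of 1492 to 1898 CPM in DC and 1140 to 1825 CPM in Ly6Chi cells; Marco was near 6 CPM in both groups. Only 6 of 18 T and NK cell markers had enough counts to be tested; 3 were higher and 0 lower (median 2.44), and Cd3e, Cd3d and Cd3g were below the filter with means of 5.42, 7.04 and 10.2 CPM in DC and 2.81, 3.40 and 6.71 CPM in Ly6Chi cells. Cd8a, carried by some DC as well as by T cells, was highest in DC replicate 2 and in Ly6Chi replicate 2, at 66.4 and 18.3 CPM, and its call was lost under 5 of 23 alternatives, one of them leaving out DC replicate 2. Il7r is also on this list, and leaving out Ly6Chi replicate 2 gave 5 higher of 7 tested. The T and NK sum ran from 120 to 459 CPM in DC and from 15.5 to 211 CPM in Ly6Chi cells.

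Endothelial markers were lower in DC in 8 of 14 and higher in 1 (median −1.54), with a sum of 192 to 597 CPM in DC and 429 to 1449 CPM in Ly6Chi cells; the higher one, Vwf, lost its call under 12 of 23 alternatives. Mesenchymal markers were higher in 0 and lower in 1 of 7 tested (median −0.89; without litter 93 the median of 6 was 0.50, with 1 higher and 0 lower, and DESeq2 and limma voom each gave 1 higher and 2 lower; sum 64.3 to 432 CPM in DC and 262 to 559 CPM in Ly6Chi cells). Epithelial markers were higher in 1 and lower in 1 of 14 (median −0.53), with sums of 374 to 2694 CPM in DC and 285 to 3255 CPM in Ly6Chi cells and Sftpc, surfactant protein C, at 577 CPM in DC and 511 CPM in Ly6Chi cells. Granulocyte, mast cell and platelet markers were higher in 2 and lower in 1 of 9 (median −1.59, but 2.35 over the 3 tested without litter 108, 2.18 over the 2 tested without the litter term and 1.50 over 15 without the filter; 0 to 5 were lower across alternatives; sum 124 to 356 CPM in DC and 28.5 to 506 CPM in Ly6Chi cells), and erythroid markers in 0 of 4 (median −1.04; sum 1.44 to 212 CPM in DC and 3.75 to 255 CPM in Ly6Chi cells). Their part in the results was not tested.

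The contrast was repeated in the hyperoxic libraries, 5 DC and 5 Ly6Chi, which share no library with the normoxic ones but come from the same litters. There 2959 of 12249 genes were called (24.2%), 1531 higher in DC (12.5%) and 1428 lower (11.7%). Of the 3806 genes called in normoxia 3740 were tested, 3670 of these had the same direction (98.1%) and 2321 were called in it (62.1%), while 0 were called in the opposite one. The 2321 are also the share called in normoxia of 2921 genes called in hyperoxia and tested in normoxia. Across the 11806 genes tested in both, which are not independent replicates, the fold changes had a Pearson r of 0.88 as a description. In hyperoxia 19 of 19 cDC1 markers, 12 of 15 class II genes and 15 of 25 mature DC genes were higher in DC, and 17 of 22 classical monocyte markers, 17 of 22 neutrophil and granule genes and 25 of 38 type I interferon stimulated genes were lower. In normoxia these counts were 19, 12, 20, 19, 17 and 32, in the same order. Over all genes tested 24.2% were called in hyperoxia and 31.4% in normoxia. Counts of other lists differed as well. Called higher in DC were 4 class I genes in hyperoxia against 10 in normoxia, and 2 cytokines against 6. Called lower were 0 endothelial markers in hyperoxia against 8 in normoxia, 3 C-type lectin receptors against 10, 3 interferon gamma genes against 8, and 5 cytokines against 3. B cell markers were higher in 4 against 9. Whether these counts differ was not tested at the level of a list. Ciita differed by 7.18 ± 0.37, Flt3 by 4.44 ± 0.22 and Vcan by −4.53 ± 0.17.

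**Figure D5:**
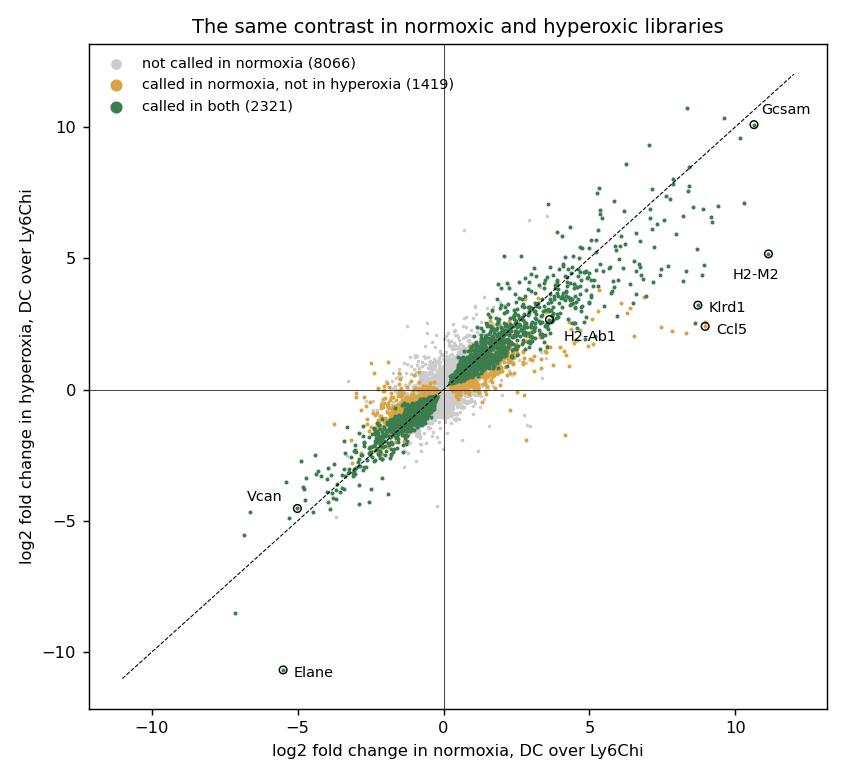
Log2 fold change (DC over Ly6Chi) in hyperoxia against that in normoxia for the 11806 genes tested in both; 2321 were called in both (green) and the dashed line marks equal values. Most called genes lie near the line; Ccl5, Klrd1 and H2-M2 lie below it on the DC side.

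Whether the DC to Ly6Chi difference itself depends on oxygen was tested as an interaction in the 22 libraries. Of 12623 genes edgeR called 0 (0%), and 483 had an unadjusted p below 0.05. DESeq2 called 5, limma voom 0, and edgeR 155 when genes with few counts were kept in. In that last fit edgeR's median prior degrees of freedom were infinite, against 6.39 with the filter, so that the spread of single genes did not enter their p-values and the 155 are no count of differences. The smallest p of a gene with a symbol was that of Mreg, a melanosome transport protein (−5.63 ± 1.10 on the log2 scale, hyperoxia minus normoxia, adjusted p = 0.571). Of the sorted class II chains, given without a test, H2-Ab1 differed by 2.66 ± 0.10 in hyperoxia and by 3.63 ± 0.20 in normoxia, and H2-Eb1 by 3.77 ± 0.13 and 4.90 ± 0.25 in that order. Ccl5 had −7.50 ± 1.75 and Klrd1 −5.65 ± 1.25 in this test, and Siglecg −1.08 ± 0.27, none past the threshold. Hyperoxic Ly6Chi replicates 3 and 5 held 590 and 73.2 CPM of Ccl5 and 27 and 9.1 CPM of Klrd1, and the other 3 at most 4.43 and 2.68 CPM. The same 2 libraries held 370 and 14.7 CPM of Il12b and 244 and 114 CPM of Slamf7, and the other 3 held 0 CPM of Il12b and at most 10.5 CPM of Slamf7. The part of these libraries in the differences was not tested for single genes. Without replicate 3 2742 genes were called in hyperoxia and the oxygen test called 0.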

How the data were processed

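RNA was amplified with SMART-Seq v4 and libraries were made with Nextera XT, per the labels' protocols, without molecular identifiers, so that intervals cover counting error only. The submitters' processing notes name TopHat, HTSeq 0.4.1, FastQC, Picard, SAMtools and build NCBIM37; their settings, the annotation and strand are not given in the sources used here. The authors deposited whole-number counts for 37991 Ensembl genes, not normalized. Symbols and exonic lengths were taken from GENCODE M21, a later build, for 32919 genes; genes without one held 0.805% of the counts. No gene of the 12 libraries had over 1.603 counts per exonic base or over 4012 counts, so abundant transcripts look limited, and their differences may be understated.

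The deposited counts were tested with edgeR 4.0.16 (R 4.3.3): TMM scaling, filterByExpr (minimum count 10, minimum total 15), a robust quasi-likelihood F test with litter as an additive term, and Benjamini-Hochberg adjustment over all genes tested at 0.05. Fold changes are DC over Ly6Chi, with edgeR's default prior count and their SE. Litter comes from the labels; replicate numbers follow accession order and pair nothing. DESeq2 1.42.0 and limma 3.58.1 (voom) were alternatives, with other filters, scalings, designs and samples left out. Counts were simulated from the real mean levels, library sizes and dispersions, without a litter effect, with 100 genes changed 2-fold and 100 changed 4-fold. On these the normoxia fit (11823 genes) recovered 68.4% of 2-fold and 87.1% of 4-fold changes, with 12 false calls. The shares are of the changed genes that passed the filter, 98 and 93 in that order. Recovery in counts with litter effects was not tested. The fit of the oxygen difference (12322 genes) recovered 42.4% and 61.9%, so that it could miss changes of these sizes. Python 3.11.15, SciPy 1.17.1 and matplotlib 3.10.9 were used for the permutation tests and figures.

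The genes named are the 12 highest and 12 lowest by fold change among called genes without overlap and with at least 50 CPM in the higher group; up to 4 members per list and direction with the smallest p; the sort markers; and the smallest p of the oxygen test. Members outside this rule were named for their role after their values had been seen. The comparison and the 41 lists (777 genes, 691 tested) were chosen with earlier results of these data known. Some members are not reported here.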

Additional observations from a re-analysis of the deposited data

Results flagged for a closer look

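A level was set apart where the gap between the highest or lowest library and the nearest one over the range of its 6 libraries passed Dixon's 95% critical value. This happened in 11 of 68 groups. For normally spread values chance gives about 1 in 20. A group with counts in 1 library only passes by construction, as Gcsam and Il12b in Ly6Chi cells and Mpo in DC did. The 11 can therefore not be set against that rate. In DC, replicate 3 held the highest Ccl5 (485.7 CPM, next 259.3) and the highest Ccl17 (375.4 CPM, next 178.3). It also had the lowest total of the DC libraries, 1152853 counts. Its counts were 568 of Ccl5 (next 480) and 439 of Ccl17 (next 341). The part of depth in these levels was not tested. DC replicate 1 held the highest Tlr11, at 186 CPM (next 130.8), and DC replicate 2 the only Mpo counts in DC, at 1.08 CPM. In Ly6Chi cells, replicate 5 stood apart for Ccr2 (1200.1 CPM, next 1046.2), Ifi44 (23.2 CPM, next 8.30), Tlr11 (4.76 CPM, next 0.874) and Il12b (0.596 CPM, all others 0). Ly6Chi replicate 1 held the highest Xcr1, at 10.5 CPM (next 4.17), replicate 6 the lowest Ifit3, at 75.6 CPM (next 118.5), and replicate 6 also the 1 count of Gcsam (0.437 CPM, all others 0).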

How the results depend on the processing

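The normoxic count of 3806 called genes lay between 2667 and 4404 with RLE scaling (3797), DESeq2 (4120), limma voom (3954), no filter (4404), a 5 CPM filter (3662), all 43 libraries in one fit (3211), the correction for limited counts (3835), and without litter 100 (3671) or litter 108 (2667). Without the replicate block of litter it was 2910 (1519 higher in DC, 1391 lower). It was 2180 without litter 93 (1167 higher, 1013 lower), and 810 (557 and 253) when a change had to exceed 2-fold. Leaving out 1 library gave 3262 to 4065. In hyperoxia, 1468 genes were called without the replicate block (781 and 687), against 2959 with it. The oxygen test called 0 genes, 5 by DESeq2 (1 and 4) and 155 without the filter (62 and 93). Listed genes called ranged from 319 without litter 93 to 472 without the filter, against 408 of 691. Of 195 genes named in the report 175 were called, and none of these changed direction under 23 alternatives: 3899 of 4011 results kept the call, and 112, in 24 genes, lost it. Of the 20 genes not called 8 passed at least once. The sign of 10 of the 20 turned, on the log2 scale. Without litter 100, B2m had −0.036, Cd14 0.062, Ifngr1 −0.062, Mki67 0.11, Sftpc −0.056, Tlr4 0.041 and Tnf 0.085. Without litter 108, Ccr2 had −0.0057, H2-D1 0.091, Marco −0.30 and Mki67 0.22. Marco had −0.0011 without litter 93 and −0.58 by limma voom. With 1 library left out, Ccr2 ran from −0.032 to 0.048, H2-D1 from −0.069 to 0.044, B2m from −0.018 to 0.17, Ifngr1 from −0.015 to 0.056, Mki67 from −0.33 to 0.040, Sftpc from −0.23 to 0.55, Tlr4 from −0.14 to 0.047, Tnf from −0.36 to 0.085 and Marco from −0.94 to 0.36. The fits without the filter had infinite median prior degrees of freedom (6.14 with it in normoxia), so that their p-values are too small and their calls, Ngp among them, support nothing. The other causes were not tested. Depth limits genes near the filter, where a group can hold fewer than 3 counts.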
